A study of Homo sapiens with 34 samples.

Results

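The comparison is that of PC3 DM cells given the ecSE7 perturbation (2 libraries) with PC3 DM cells given the vector (2 libraries), which are 4 of the 34 CUT&Tag libraries of the series, chosen by their sample titles. Both groups were PC3 DM cells, a prostatic adenocarcinoma line, transfected with 700 ng of sgRNA plasmid by lipofectamine LTX, collected 3 days later and profiled from 50000 nuclei with a rabbit antibody against H3K9me, whose degree of methylation the labels leave out. The series perturbed elements of extrachromosomal DNA (ecDNA) with CRISPR-based epigenomic tools. The labels give neither the position of ecSE7 nor the effector joined to Cas9, nor whether the combination of elements (labelled ecSEcombo) includes it. A further 12 PC3 DM libraries, 3 each of the ecSE1, ecSE2, ecSE6 and combination perturbations, serve below to show how the same search performs elsewhere. A marked fraction of cells or of ecDNA copies and the amount of mark per copy cannot be told apart in such bulk libraries.

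Methylation of lysine 9 of histone H3 is written by enzymes such as SETDB1 and SUV39H1 and marks silent chromatin, where HP1 proteins bind it. Repressors of the KRAB type, natural zinc finger proteins or KRAB fused to inactive Cas9, recruit SETDB1 through TRIM28 and so place the mark at the site they bind. Clusters of zinc finger (ZNF) genes carry it in most cell types. ecDNA is circular, lacks a centromere and often holds many copies of an oncogene with its enhancers, and in PC3 DM cells it carries MYC, the growth-promoting transcription factor of band 8q24.

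After the ecSE7 perturbation, 1 region of chromosome 8 was high in both perturbed lists and low in both vector lists, at ranks of 701 and 153. Regions that ranked among the 1000 best peaks of both ecSE7 lists and were absent from both vector lists, or ranked beyond 5000 there, numbered 17 over all chromosomes. The opposite search, high after vector and low after ecSE7, gave 14 regions, also with 1 on chromosome 8. With the same limits, pairs of libraries of the other perturbations gave 3 to 13 chromosome 8 regions. Without vector replicate 1 that contrast was not seen, with 8 regions for ecSE7 and 4 to 21 for the other pairs. At the 11 chromosome 8 regions that were high after ecSE1, ecSE2 or ecSE6 and low in both vector lists, in TG, in and beside PVT1, at LOC105375750 and near MTND2P7, ecSE7 libraries had no peak or a peak ranked 1369 at best. The strongest chromosome 8 peaks of the ecSE7 libraries were those of the vector libraries.

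List length and 1 strong peak set the libraries apart before any comparison. The ecSE7 lists held 25052 and 11239 peaks and the vector lists 18547 and 55454, while the other 12 PC3 DM lists held 10288 to 102286. The mean of log10 peak number was 4.22 ± 0.246 after ecSE7 and 4.51 ± 0.336 after vector (SD, n = 2 each, exact permutation test, two-sided, p = 0.667). With 2 libraries against 2 that test cannot give a p under 0.33. Lists were therefore compared by rank, or cut to the 10288 best peaks, the length of the shortest list. The median peak held 5 and 8 fragments at its summit in the ecSE7 libraries and 11 and 6 in the vector libraries, so that most listed peaks rest on few fragments.

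The best peak of both ecSE7 lists lay at RNU6-1, a gene of the U6 small nuclear RNA (chr15:67839939-67840045, hg38). It held 11154 fragments at the summit in ecSE7 replicate 1 and 6312 in replicate 2, against 2490 in vector replicate 2. Against local background these were folds of 46.6 and 44.6 after ecSE7 and 53.5 in vector replicate 2. Other perturbed libraries with this peak held 2549 to 16806 fragments. Vector replicate 1 listed no peak there, and neither did ecSE6 replicate 1, while the peak ranked first in the other 14 PC3 DM lists. In ecSE7 replicate 1 the peak ran from 67840035 to 67840296, which is mostly beyond the higher end of the annotated gene. U6 promoters drive sgRNAs in many plasmids. The promoter of the plasmids used here is not in the labels, and its part in this peak was not tested. Because vector replicate 1 stands apart at this site, results are also given without it. Over the 1000 best peaks it did not stand apart from the ecSE7 lists, sharing 22.75% and 28.5% with them. Vector replicate 2 shared less, 12.8% and 15.35%, so leaving out replicate 1 keeps the vector list that agreed less with ecSE7.

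**Figure D1:**
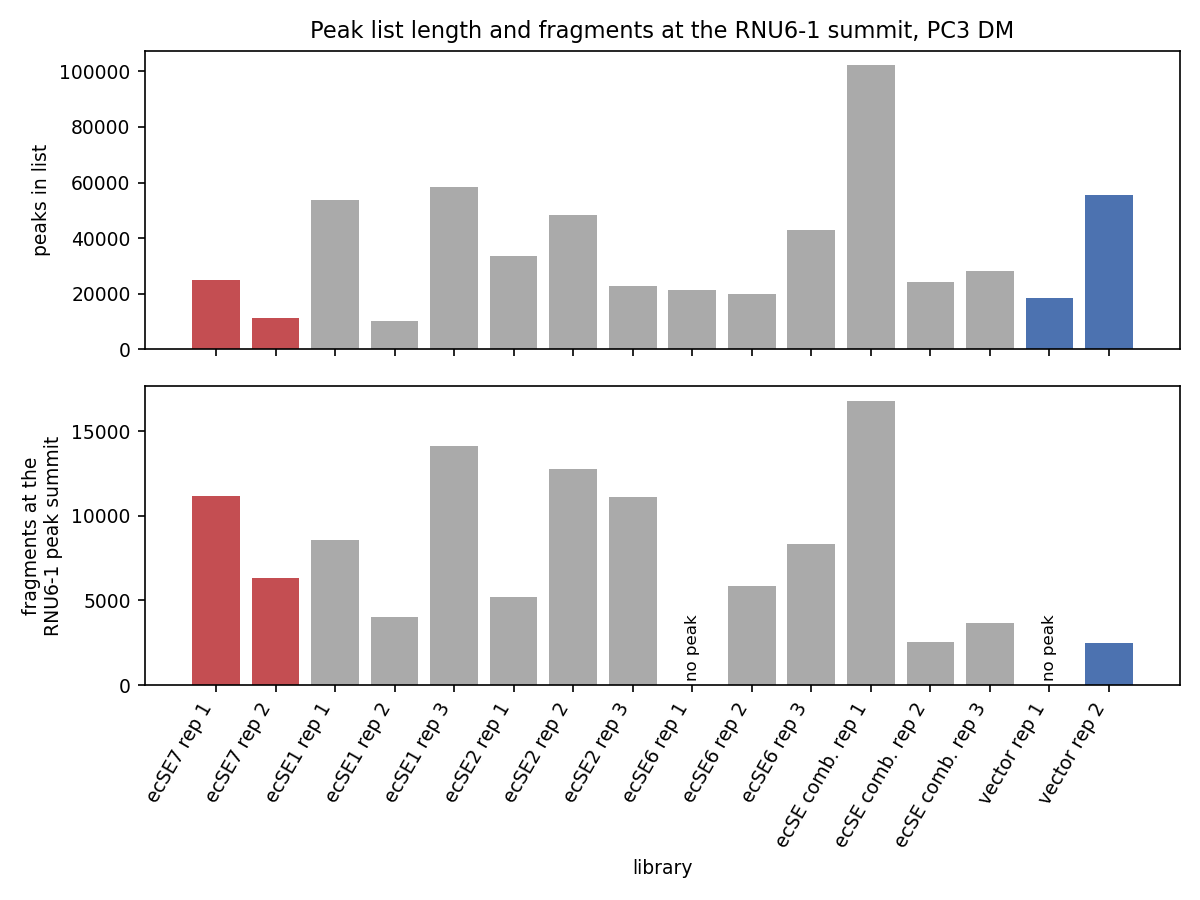
Number of peaks per list (upper bars) and fragments at the summit of the RNU6-1 peak (lower bars) in the 16 PC3 DM libraries, ecSE7 in red, vector in blue, other perturbations in grey. Lists run from 10288 to 102286 peaks, and vector replicate 1 and ecSE6 replicate 1 have no RNU6-1 peak.

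The best-ranked chromosome 8 peaks were the same places in ecSE7 and vector libraries. A total of 13 regions were among the 100 best peaks of all 4 lists, and 10 of them lay on chromosome 8. All 13 had a peak in each of the other 12 PC3 DM libraries too. Allowing ranks up to 1000, 67 regions were high in all 4 lists, 23 of them on chromosome 8. The strongest, at chr8:126603505-126604103 in the uncharacterised locus LOC105375751, ranked 2 in both ecSE7 lists and 1 and 2 in the vector lists. It held 435 and 539 fragments at the summit in ecSE7 libraries and 911 and 617 in vector libraries. Against the local background of each library these were folds of 8.09 and 6.50 after ecSE7 and of 5.48 and 10.7 after vector, so that the 2 groups overlap.

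A second site in the body of ADCY8, which encodes adenylyl cyclase 8 (chr8:130827504-130831113), ranked 4 in both ecSE7 lists and 3 in both vector lists. Its folds were 5.29 and 4.85 after ecSE7 and 4.27 and 6.92 after vector. A site 106659 bp from LOC105375758 (chr8:130655860-130657894) ranked 3 in both ecSE7 lists and 2 and 4 in the vector lists. The site beside the non-coding LINC02055 (chr8:136907150-136908261) ranked 6 in both ecSE7 lists, against 5 and 8 in the vector lists. At each of these sites the ranks of the 2 groups lay next to each other.

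Among the 3 regions of the 13 that lay elsewhere, the nearest or overlapping genes were WNT7A, a secreted Wnt ligand, LRMDA, and the ZNF pseudogene ZNF33CP. The region beside WNT7A (chr3:13814971-13815647) ranked 10 and 20 after ecSE7 and 12 and 20 after vector. The region in LRMDA (chr10:75581566-75583218) ranked 11 and 7 after ecSE7 and 14 and 90 after vector, and that in ZNF33CP (chr10:37895071-37896942) ranked 28 and 10 after ecSE7 and 27 and 33 after vector.

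Few of these peaks lay on promoters. Of 34961 RefSeq promoter windows (250 bases before to 50 after a gene's start, GRCh38.p14, the build of hg38), 41 and 35 were under one of the 10288 best peaks in the ecSE7 libraries, 40 and 47 in the vector libraries, and 24 to 51 in the other 12. No window was under a peak in both ecSE7 lists and neither vector list, and none the other way round. The 2 windows under a peak in all 4 lists are printed below 5′ to 3′ on the gene's strand, since they show which promoter sequence lay under a peak in all 4 libraries, with the bases that the peaks of all 4 lists cover in capitals. Both genes lie on the minus strand, ZNF473-AS1 inside the zinc finger gene ZNF473 (window chr19:50044640-50044939) and the uncharacterised LOC124901737 on chromosome 7 (window chr7:121511145-121511444).
ZNF473-AS1: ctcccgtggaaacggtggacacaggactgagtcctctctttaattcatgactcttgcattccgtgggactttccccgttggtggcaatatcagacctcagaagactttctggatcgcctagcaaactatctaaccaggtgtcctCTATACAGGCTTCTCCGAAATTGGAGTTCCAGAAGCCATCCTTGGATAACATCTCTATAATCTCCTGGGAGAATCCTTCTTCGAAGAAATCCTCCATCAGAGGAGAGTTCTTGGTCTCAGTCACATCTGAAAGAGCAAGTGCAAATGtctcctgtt
LOC124901737: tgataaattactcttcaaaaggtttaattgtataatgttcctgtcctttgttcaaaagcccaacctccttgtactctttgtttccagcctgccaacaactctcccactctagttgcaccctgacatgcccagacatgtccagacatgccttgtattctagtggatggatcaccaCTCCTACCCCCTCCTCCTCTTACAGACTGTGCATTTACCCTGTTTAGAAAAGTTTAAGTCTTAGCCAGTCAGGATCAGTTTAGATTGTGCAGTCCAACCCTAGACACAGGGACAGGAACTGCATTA
The capitals cover 147 of the 300 bases at ZNF473-AS1 and 126 of 300 at LOC124901737, in both cases around the gene's start. The peak at ZNF473-AS1 ranked 230 and 18 after ecSE7 and 10 and 795 after vector, and held 45 and 98 fragments after ecSE7 and 182 and 38 after vector. The peak at LOC124901737 ranked 112 and 1027 after ecSE7 and 3926 and 7122 after vector, with 32 and 28 fragments after ecSE7 and 36 and 19 after vector. The ranks at LOC124901737 were better in both ecSE7 lists than in either vector list, which those at ZNF473-AS1 were not.

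The regions sought were those gained after ecSE7. Of 208 regions among the 1000 best peaks of both ecSE7 lists, 39 on chromosome 8 and 169 elsewhere, 17 (8.17%) were low in both vector lists. Of 148 regions among the 1000 best of both vector lists, 14 (9.46%) were low in both ecSE7 lists, so that the share was no higher in the sought direction. On chromosome 8 it was 1 of 39 after ecSE7 and 1 of 35 after vector. No region among the 100 or the 300 best of both ecSE7 lists passed, and none did in the opposite direction. Of the 17 regions, 7 had no peak at all in either vector list. The summits of the 17 held 14 to 65 fragments in ecSE7 libraries. Leaving out vector replicate 1 raised the number of regions that passed to 69, with 8 on chromosome 8, and leaving out vector replicate 2 raised it to 31, with 3. With fewer vector lists in which to be low, the number could not fall.

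The 1 such region on chromosome 8 (chr8:137041840-137042230) has no annotated gene within 63122 bp, the distance to the U6 pseudogene RNU6-144P. It ranked 701 in ecSE7 replicate 1 and 153 in replicate 2 and had no peak in either vector list. Its summits held 24 and 40 fragments in the ecSE7 libraries. A peak was also listed there in 3 of the other 12 libraries, none within the 1000 best, and these included 2 of the 3 combination libraries.

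Other chromosome 8 regions with a better rank after ecSE7 did not meet the limit in the vector lists. The region at chr8:126605540-126605864 in LOC105375751, next to the strongest shared peak, ranked 57 in both ecSE7 lists with 118 and 154 fragments, and in the vector lists was absent from replicate 1 and ranked 451 with 110 fragments in replicate 2. A peak was also listed there in 10 of the other 12 libraries, in 6 of them within the 1000 best. A region 74245 bp from LINC00824 (chr8:128638924-128639841) ranked 12 in both ecSE7 lists, against 50 and 395 after vector. It held 68 and 89 fragments after ecSE7 and 85 and 44 after vector. Its folds were 9.63 and 7.36 after ecSE7 and 5.95 and 5.49 after vector. The region was chosen by its ranks. It was among the 1000 best peaks in 11 of the other 12 libraries. In RALYL, which encodes an RNA-binding protein, a region (chr8:84639178-84639892) ranked 639 and 505 after ecSE7, against 1745 in vector replicate 1 and no peak in replicate 2. The region at chr8:100772368-100772686, near the ribosomal pseudogene RPS20P23, ranked 325 and 207 after ecSE7, against 3879 in vector replicate 1 and no peak in replicate 2. Of the other 12 libraries, 11 listed a peak at the RALYL region, 2 of them within the 1000 best. At the region near RPS20P23 it was 6, none within the 1000 best. In all, 10 of the 39 chromosome 8 regions ranked better in both ecSE7 lists than in either vector list, and 10 of the 35 in the opposite search ranked better in both vector lists.

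Most regions that passed lay on other chromosomes and in part in zinc finger genes. A region in ZNF558 (chr19:8810403-8810918) ranked 408 and 78 after ecSE7, with 40 and 65 fragments, against 10676 with 50 fragments in vector replicate 1 and no peak in replicate 2. The local background there was 20.0 fragments in vector replicate 1 and 7.40 and 12.2 in the ecSE7 libraries. Folds over it were 2.43 in vector replicate 1 and 4.88 and 4.99 after ecSE7. Divided by the lowest background of each library, the summit was 123 in vector replicate 1 and 225 and 267 after ecSE7. Fragment numbers alone are not comparable between libraries of unknown depth. The region shared by ZNF69 and ZNF763 (chr19:11977668-11978023) ranked 597 and 658 after ecSE7, with 29 and 40 fragments, and was absent after vector. ZNF genes held 3 of the 17 regions, against 28 of the 208 from which they came, and 2 of the 14 in the opposite direction.

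Regions were ordered by the ratio of the better vector rank to the worse ecSE7 rank, where a region absent from a vector list counted as 1 rank beyond the end of that list. The order among regions absent after vector thus follows their worse ecSE7 rank alone. The first was at chr3:180260447-180260905, with no gene within 47234 bp, which ranked 611 and 203 after ecSE7 with 19 and 25 fragments and was absent after vector. A region in CATSPERE, a subunit of the calcium channel of sperm (chr1:244574050-244574397), ranked 632 and 169 with 38 and 53 fragments and was absent after vector. A region in EHBP1, a gene of endocytic trafficking (chr2:62709693-62710064), ranked 784 and 192 with 16 and 26 fragments and was likewise absent after vector. These 3 regions thus held 16 to 53 fragments in ecSE7 libraries, fewer than the 435 and 539 of the strongest shared site of chromosome 8. Local background at that shared site was higher, at 52.9 and 82.1 fragments in ecSE7 libraries. Folds over background were 8.14 and 9.44 at the chr3 region, 4.67 and 4.95 in CATSPERE and 8.48 and 9.29 in EHBP1. At the shared site they were 8.09 and 6.50, so by fold only the CATSPERE region was lower in both ecSE7 libraries.

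The remaining 4 of the 10 largest ratios were at chr3:35328276-35328794 in LOC101928135, chr7:63525022-63525447, chr7:4499665-4500578 and chr14:34420901-34421407. The region in LOC101928135 ranked 493 and 182 after ecSE7, against 12882 in vector replicate 1 and no peak in replicate 2. Those on chromosome 7 ranked 792 and 218, and 303 and 908, after ecSE7 and were absent after vector. The chr14 region had a peak in all 4 lists, with ranks of 314 and 709 after ecSE7 against 10355 and 19552 after vector. Its fragments were 19 and 22 after ecSE7 against 19 and 10 after vector, and its folds 9.44 and 7.39 against 4.23 and 5.72. None of the 17 regions was confined to ecSE7, since 2 to 11 of the other 12 PC3 DM libraries, with a median of 8, listed a peak at each. Of the 17, 5 were outside the 1000 best peaks of all 12, and none was within the 1000 best of all 3 combination libraries.

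In the opposite direction, ordered in the same way, the first was beside the pseudogene ZNF73P (chr22:11458632-11459359), absent after ecSE7 and ranked 376 in both vector lists. A region in ZNF514 (chr2:95151276-95152617) ranked 8064 in ecSE7 replicate 1 and was absent from replicate 2, against 163 and 307 after vector. A region in ZNF717 (chr3:75735143-75735443) was absent after ecSE7 and ranked 613 and 186 after vector. The other 2 of the 5 largest ratios, at chr5:43336049-43336533 and chr14:21589305-21589790, ranked 8323 and 8899 in ecSE7 replicate 1 and were absent from replicate 2. Regions of this set were listed in 2 to 12 of the other 12 libraries, with a median of 7.

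**Figure D2:**
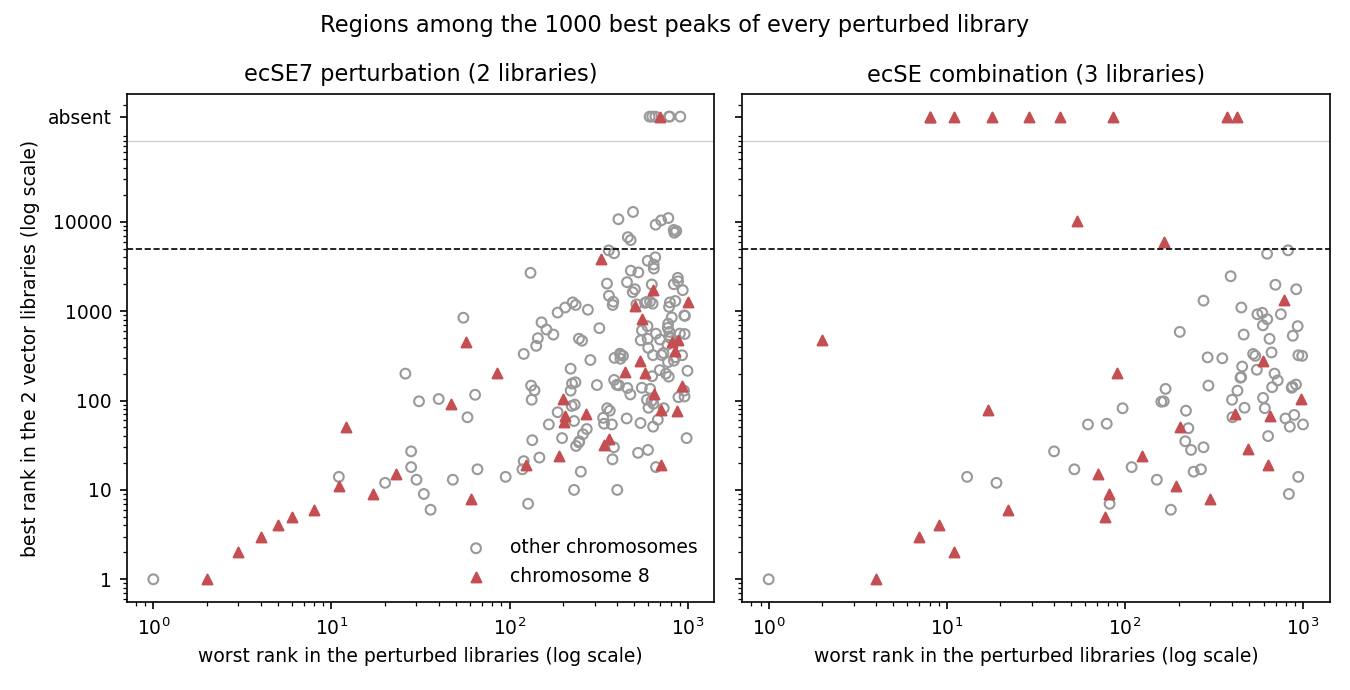
Each point is a region among the 1000 best peaks of every library of the perturbation, ecSE7 on the left and the combination on the right, by its worst rank in those libraries (horizontal, log scale) and its best rank in the 2 vector libraries (vertical, log scale, absent at the top). Points above the dashed line at 5000 include 1 chromosome 8 region (triangles) among 17 for ecSE7, all at worst ranks beyond 300, and 11 of 11 for the combination, 8 of them at worst ranks within 100.

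The same search found chromosome 8 regions for each of the other perturbations. All of these comparisons share the 2 vector libraries. Taking all 3 libraries of a group, it gave 3 regions after ecSE1, 4 after ecSE2, 6 after ecSE6 and 11 after the combination, of which 3, 3, 5 and 11 lay on chromosome 8. Taking 2 libraries at a time, as ecSE7 has 2, the 12 possible pairs gave 5 to 25 regions, against 17 for ecSE7. In those pairs 3 to 13 lay on chromosome 8, a share of 26.1% to 60%, against 1 of 17 (5.88%) for ecSE7. Within the 100 best peaks of both libraries the pairs had 3 to 10 regions that passed, against 0 for ecSE7. Without vector replicate 1, 8 of 69 regions for ecSE7 lay on chromosome 8 (11.6%), inside the 4 to 21 regions and the 10.2% to 24.6% of the 12 pairs. Without vector replicate 2, it was 3 of 31 for ecSE7 (9.68%), against 3 to 14 regions and 22.2% to 40% in the pairs. Ranked by fold, 0 regions of chromosome 8 passed for ecSE7 and 0 to 1 in the pairs. Among the 1000 best peaks the lower count of ecSE7 therefore did not hold without vector replicate 1. By fold only 1 chromosome 8 region was among the 1000 best of both ecSE7 lists, so that ranking could not show a lower count. Among the 100 best, without vector replicate 1, 1 chromosome 8 region passed for ecSE7 and 3 to 12 in the pairs.

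**Figure D3:**
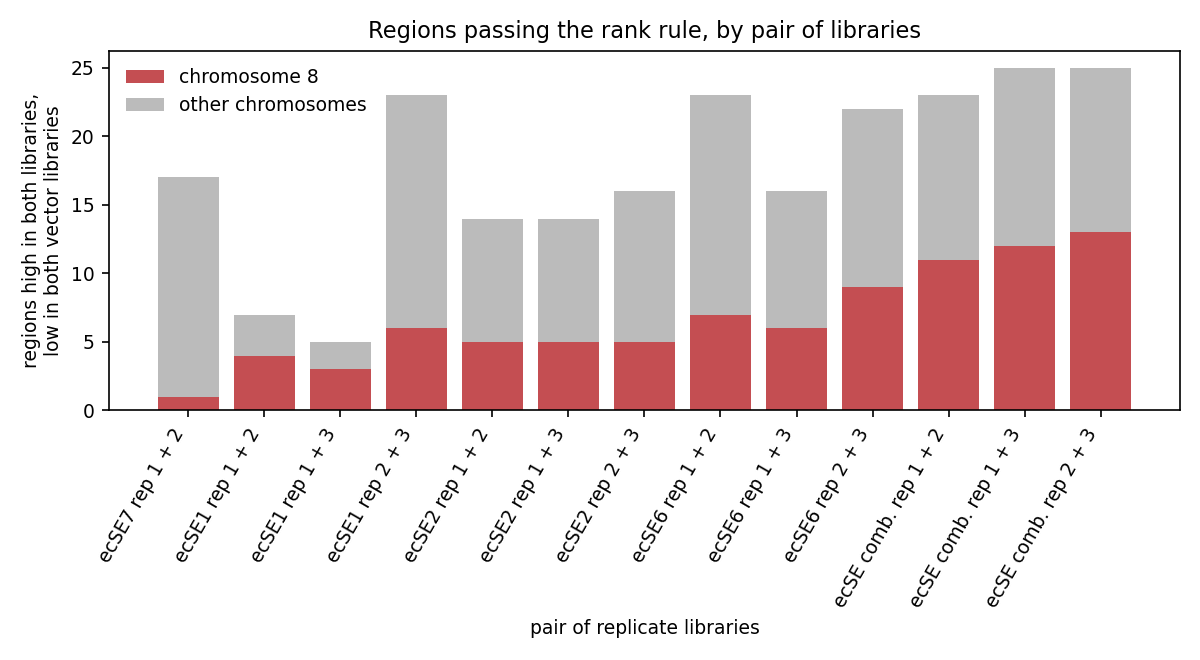
Number of regions among the 1000 best peaks of both libraries of a pair and low in both vector libraries, on chromosome 8 (red) and elsewhere (grey). The ecSE7 pair at the left has 1 region on chromosome 8, and the 12 pairs of other perturbations have 3 to 13. Without vector replicate 1, which is not drawn, the counts are 8 for ecSE7 and 4 to 21 for the pairs.

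Single libraries were compared in the same way. Of the 100 best peaks of a library, those on chromosome 8 that were low in both vector lists numbered 0 in ecSE7 replicate 1 and 1 in replicate 2, and 3 to 11 with a median of 6 in the other 12 perturbed libraries. The means were 0.5 after ecSE7 (n = 2) and 6.67 in the others (n = 12), a difference of -6.17. No p is given for it, because the count was chosen after its values were seen and the 12 libraries are replicates of 4 perturbations. Without vector replicate 1 the counts were 1 to 4 after ecSE7 and 4 to 14 in the others. Ranked by fold in place of q-value, there were 4 in each ecSE7 library and 1 to 8 in the others. The ecSE7 peak concerned, in the locus PARAIL, ranked 93 in replicate 2 and 3657 in replicate 1.

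At the 11 chromosome 8 regions found for ecSE1, ecSE2 and ecSE6, which by the search are low in both vector lists, no peak was listed in ecSE7 replicate 1. Replicate 2 had a peak at 3 of them, and each vector list had a peak at 1. In TG, the thyroglobulin gene, 1 of the 3 ecSE2 regions held a peak ranked 1369 in ecSE7 replicate 2 and one ranked 5971 in vector replicate 1, against ranks of 5, 8 and 5 in the ecSE2 libraries. In PVT1, the non-coding gene next to MYC, the ecSE6 region that spans the microRNA gene MIR1204 held a peak ranked 4652 in ecSE7 replicate 2 and none in either vector list, against ranks of 3, 4 and 3 after ecSE6. The third, at LOC105375750, held a peak ranked 4468 in ecSE7 replicate 2 and 10151 in vector replicate 2, against 15, 10 and 8 after ecSE6. A further top-ranked site of ecSE1, 23991 bp from MTND2P7 (chr8:133729762-133730748), was no such region, since it ranked 711 and 676 after ecSE7, with 58 and 87 fragments, and 78 and 116 after vector, with 144 and 76. It ranked 12, 9 and 12 after ecSE1 and 12, 17 and 7 after the combination.

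All 11 chromosome 8 regions of the combination were among the 1000 best peaks of at least 2 of 3 libraries of ecSE1, ecSE2 or ecSE6. None was among the 1000 best of either ecSE7 list. Of the 39 chromosome 8 regions high in both ecSE7 lists, 19 were also high in all 3 combination lists, and 0 of these were low in both vector lists.

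**Figure D4:**
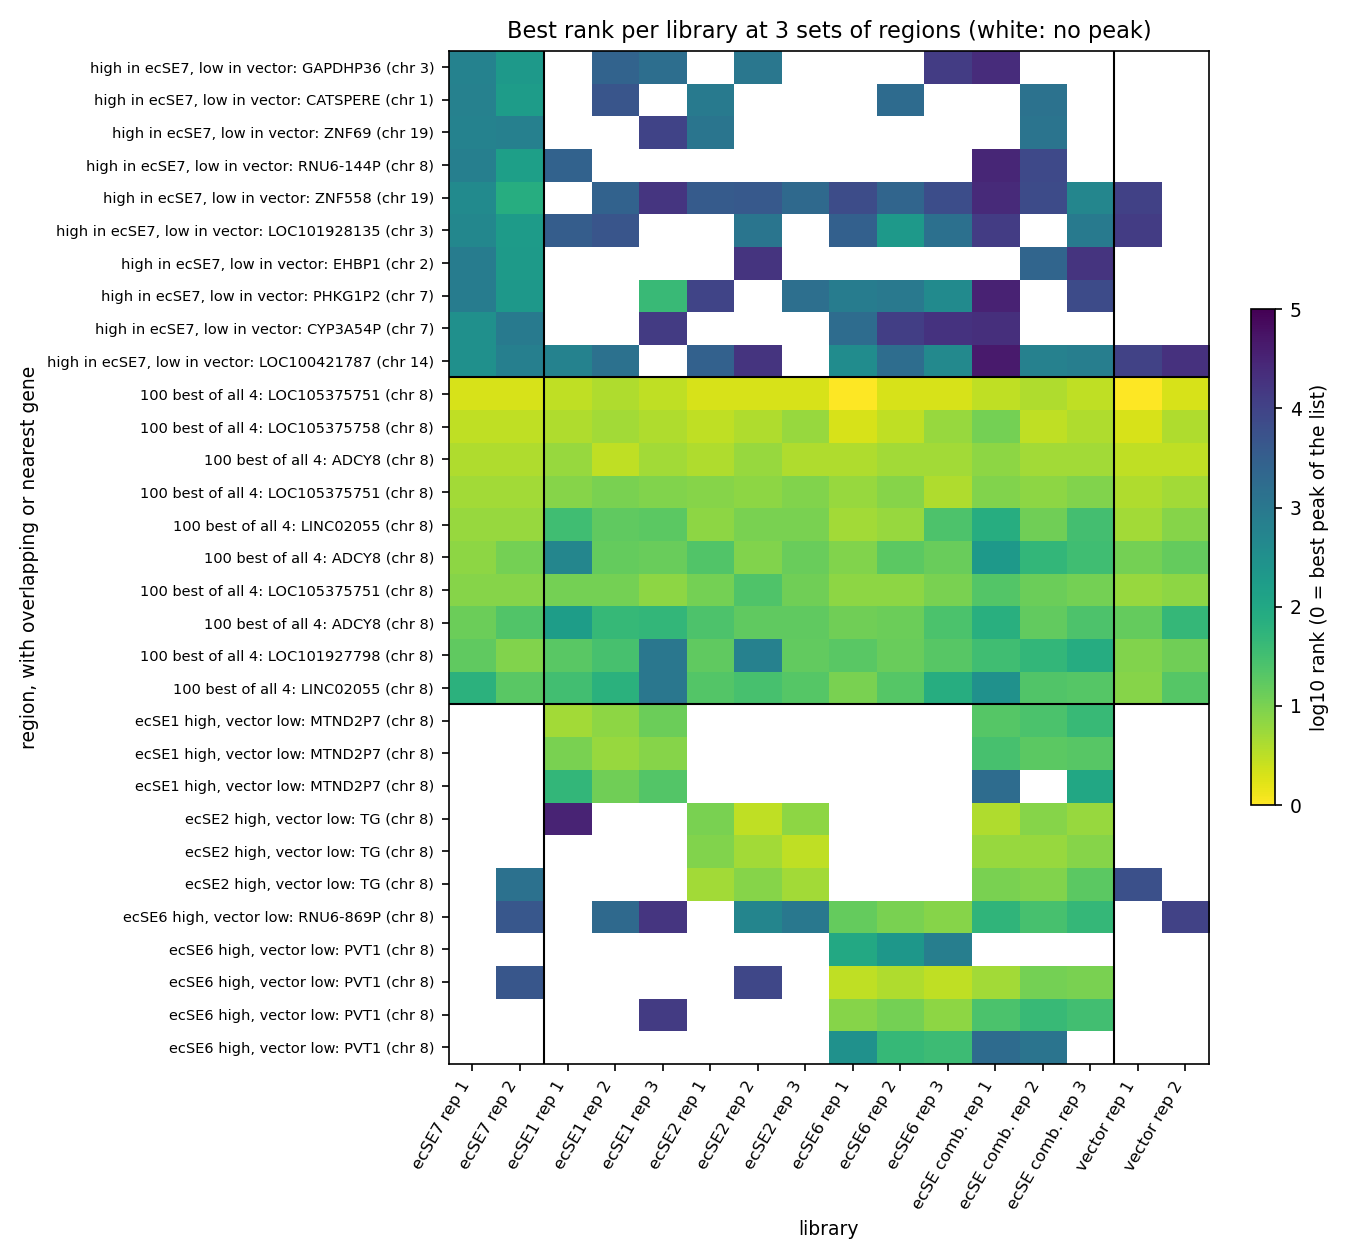
Best rank at 3 sets of regions (rows) in the 16 PC3 DM libraries (columns, ecSE7 leftmost and vector rightmost), on a log10 scale where 0 is the best peak and white means no peak. The top set passes the ecSE7 search at ranks of 78 to 908 in ecSE7 and is scattered over other libraries. The middle set ranks within 100 in all 4 ecSE7 and vector libraries. Most rows of the bottom set are near the top in ecSE1, ecSE2 or ecSE6 and in the combination. Some rows of the bottom set rank lower or are white in the combination. The bottom set is mostly white in ecSE7 and vector.

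Over chromosome 8 as a whole the ecSE7 and vector lists also overlapped. In lists cut to equal length, chromosome 8 held 5.50% and 6.57% of peaks after ecSE7 and 6.24% and 6.18% after vector. The means were 6.04% ± 0.756 after ecSE7 and 6.21% ± 0.0412 after vector (SD, n = 2 each, exact permutation test, two-sided, p = 1). Both vector values lay between the 2 ecSE7 values. Against the other 14 PC3 DM libraries, which ran from 5.74% to 6.58%, the difference was -0.196 percentage points (exact permutation test, two-sided, p = 0.400).

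The window reaching 2 Mb either way from the start of MYC (chr8:125735434-129735434) held 27 and 36 peaks of the cut ecSE7 lists and 31 and 38 of the vector lists. As a share this was 0.306% ± 0.0619 after ecSE7 and 0.335% ± 0.0481 after vector (SD, n = 2 each, exact permutation test, two-sided, p = 0.667). The other 14 libraries, vector included, averaged 0.389% ± 0.0855 (exact permutation test, two-sided, p = 0.200). With 10 Mb either way, the difference of ecSE7 from the 14 libraries was -0.234 percentage points (exact permutation test, two-sided, p = 0.0333). This was the smallest p of all tests of shares and peak numbers run here. The 14 libraries are replicates of the vector and the other perturbations, which the test treats as independent. Regions found for those perturbations, in TG, in and beside PVT1, at LOC105375750 and near MTND2P7, lie inside this window. Their part in the difference was not tested. The difference from vector in that wider window was -0.190 points (p = 0.33, exact permutation test, the smallest possible). With 1 Mb either way, the difference from the 14 was -0.0354 points (exact permutation test, p = 0.517).

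Along the chromosome, the megabase with most peaks within 10 Mb of MYC in all 4 lists was that from 2 to 3 Mb above it, with 24 peaks in each ecSE7 list and 22 and 23 in the vector lists. The first megabase above MYC held 5 and 7 peaks after ecSE7 and 5 and 8 after vector, against 13 to 22 after ecSE6 or the combination. From 8 to 9 Mb above MYC the ecSE7 lists held 11 and 8 peaks and the vector lists 20 and 17, and the other 12 libraries 9 to 20, a range that takes in all but the lower ecSE7 value.

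**Figure D5:**
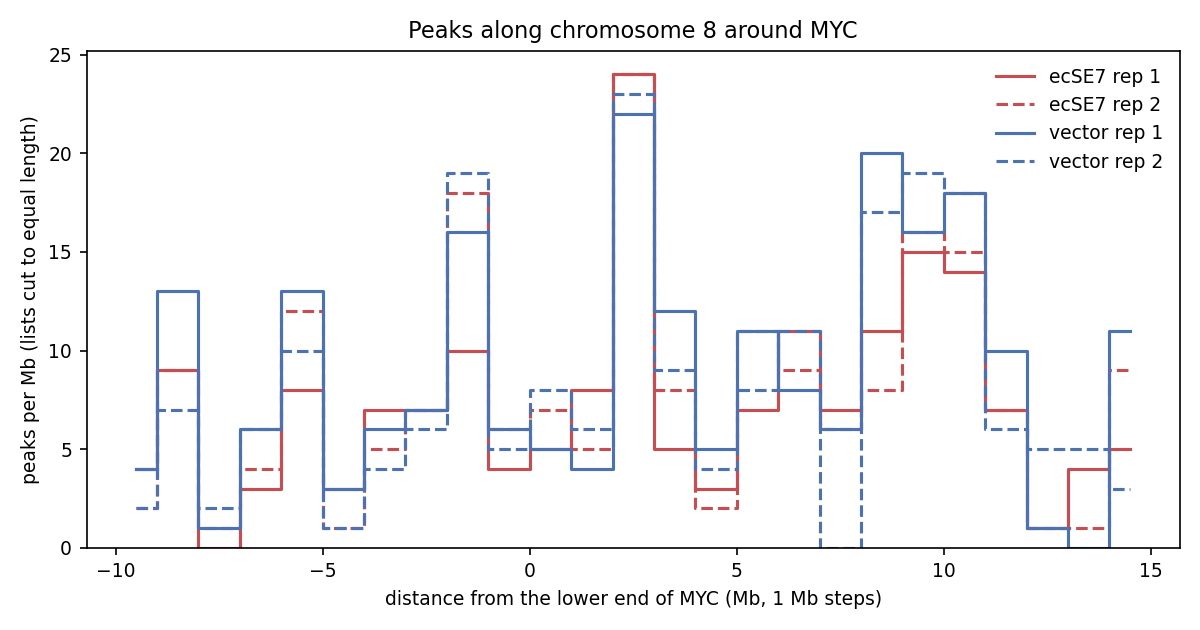
Peaks per megabase of chromosome 8 by distance from the start of MYC, in lists cut to 10288 peaks, for ecSE7 (red) and vector (blue) replicates 1 (solid) and 2 (dashed). The 4 lines follow each other, with 22 to 24 peaks from 2 to 3 Mb, and lie furthest apart from 8 to 9 Mb.

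Local background varied along 8q24. From 2 to 3 Mb above MYC, the local background under the median peak was 40.4 and 45.9 times the lowest background of the library after ecSE7 and 47.0 times in both vector libraries. In the 4 Mb window around MYC the median peak had 1.5 and 5.55 times the lowest background after ecSE7 and 4.2 and 1.9 times after vector. On all other chromosomes the median peak had 1.20 and 1.77 times the lowest background after ecSE7 and 2.22 and 1.28 times after vector. A peak at MYC (chr8:127735434-127742951, with 2 kb on each side) was listed in ecSE7 replicate 1 at rank 5282 with 29 fragments over a background of 7.51, and in none of ecSE7 replicate 2 and the vector lists. CASC11, the non-coding neighbour of MYC, had a peak of rank 9189 in ecSE7 replicate 1 and of rank 19496 in vector replicate 2. LRATD2 had none in the 4 lists. In PVT1 the best peaks ranked 23377 and 4652 after ecSE7 and 10489 and 18272 after vector. In TG they ranked 22573 and 1369 after ecSE7 and 5971 and 1092 after vector. At none of these 5 genes did both ecSE7 lists rank better than both vector lists.

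Agreement between replicates was low in both groups. The 2 ecSE7 lists shared 21.05% of their 1000 best peaks and the 2 vector lists 15.05%. An ecSE7 list shared 12.8% to 28.5% with a vector list, a range that takes in the value of the ecSE7 pair. With vector replicate 1 the ecSE7 lists shared 22.75% and 28.5%, both above the ecSE7 pair. With vector replicate 2 they shared 12.8% and 15.35%, both below it. The 12 same-group pairs of other perturbations shared 6.55% to 33.15%. Among the 100 best peaks the ecSE7 lists shared 32.0%, an ecSE7 and a vector list 28.5% to 32.0%, and the vector lists 23.5%. Ranked by fold, the ecSE7 lists shared 6.20%, above the 2.70% to 5.45% of ecSE7 and vector pairs, and the vector lists 2.3%.

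Genes were called by a peak within 2 kb of a protein-coding gene in lists cut to equal length. Of 4862 genes with a peak in any of the 4 lists, 179 (3.68%) had one in both ecSE7 lists and neither vector list, and 167 (3.43%) in both vector lists and neither ecSE7 list. A peak in all 4 lists was found in 571 genes. The 179 genes had a peak in a median of 4 of the other 12 libraries, and 14 of them in none. The 167 likewise had a median of 4, with 9 in none. At an overlap of 500 bp or more the counts were 2 after ecSE7 and 16 after vector.

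By the worse of their 2 ranks, the leading genes after ecSE7 were CWC27 and CDC5L, both of the spliceosome, the zinc finger gene ZNF878, and ZNHIT6, which acts in snoRNP assembly. CWC27 ranked 153 and 901, ZNF878 ranked 1612 and 939, CDC5L ranked 1821 and 268 and ZNHIT6 ranked 2362 and 84 in the ecSE7 lists, with no peak among the 10288 best after vector. ZNF878 had a peak in all of the other 12 libraries and CWC27 in 4. The next were PAM, which amidates peptides, IL5RA, the receptor of interleukin 5, the T cell transcription factor BCL11B, AMPH (amphiphysin), ACCSL, the neural splicing factor SRRM4, the deubiquitinase USP26 and ANKRD28, with worse ranks of 2554 to 3133. IL5RA had a peak in 1 of the other 12 libraries, the fewest of these 12 genes.

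The leading genes after vector were ZNF717, ranked 613 and 186, the phospholipase DDHD1, ranked 435 and 721, the zinc finger gene ZIK1, ranked 987 and 399, and BOLL, a germ cell RNA-binding protein, ranked 1010 and 813. The other 8 were MYH15, SMIM35 and TMPRSS4, which overlap and share a peak, PTBP3, SGPP1, RAB10, ZNF550 and ZNF614, with worse ranks of 1111 to 2234. The worse ranks of the 12 leading genes were thus 613 to 2234 after vector and 901 to 3133 after ecSE7.

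Counts by gene list stood as follows, beside 11.1% and 12.1% of all protein-coding genes with a peak after ecSE7 and 10.1% and 11.1% after vector. Calls are set beside the 3.68% after ecSE7 alone and 3.43% after vector alone of all genes with a peak in any of the 4 lists. Of 34 genes of 8q24 around MYC, 11 and 7 had a peak after ecSE7 and 11 and 8 after vector. Of the 18 with a peak in any list, 0 were called after ecSE7 alone and 2 (11.1%) after vector alone, HHLA1 with worse rank 7840 and TMEM71 with worse rank 6688. Of 250 zinc finger genes of chromosome 19, 124 and 106 had a peak after ecSE7 and 151 and 119 after vector. Of the 195 with a peak in any list, 3 (1.54%) were called after ecSE7 alone, ZNF546, ZNF85 and ZNF878, and 9 (4.62%) after vector alone, while the other 12 libraries had 108 to 144 with a peak.

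Of 20 genes of the H3K9 methylation machinery, 4 and 6 had a peak after ecSE7 and 3 and 2 after vector, and 2 to 5 in the other 12 libraries. Of the 10 with a peak in any list, 2 (20%) were called after ecSE7 alone and 0 after vector alone. The 2 were SETDB1, the methyltransferase itself, at ranks of 1288 and 8016, and its stabilising partner ATF7IP, at ranks of 424 and 8503. SETDB1 had a peak in 2 and ATF7IP in 7 of the other 12 libraries. A peak over a gene body is not a measure of its expression.

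The clustered protocadherins, neuronal adhesion genes in tandem arrays, had a peak in 17 and 14 of 53 after ecSE7 and in 7 and 2 after vector. None was called in either direction, and the other 12 libraries had 1 to 31. A peak counted for every gene whose span it met, so genes of an array can share a peak. The number of separate peaks behind these counts was not determined. Of 392 olfactory receptor genes, 19 in each ecSE7 list had a peak, against 11 and 18 after vector, with none called. Of 21 imprinted genes 3 and 2 had a peak in either group, with none called.

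Peaks over markers of cell identity cannot show whether a cell type is present. Of 12 prostate identity genes 1 and 1 had a peak after ecSE7 and 1 and 2 after vector. Of 10 neuroendocrine genes 2 and 2 had one after ecSE7 and 1 and 1 after vector, with NCAM1, a neural adhesion molecule, 1 of 2 genes of the list with a peak in any list, called after ecSE7 alone at ranks of 7104 and 5715. Of 10 mesenchymal genes 1 and 2 had a peak after ecSE7 and 0 and 1 after vector, with none called.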

How the data were processed

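H3K9me CUT&Tag peak lists of 16 PC3 DM libraries were used, on hg38. MACS2 2.2.7.1, Bowtie2 2.3.5, Trim Galore 0.6.6, bedtools and SAMtools are named, without roles, per the submitters' processing notes. File names state removal of blacklisted regions and an FDR of 0.001. There is 1 list per library. The sources used here name no control library.

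Each deposited list gives per peak the authors' fold, a ratio of summit to local background, and the authors' -log10 p-value and -log10 q-value. These are the authors' values of each peak and were used to rank peaks within a list. Depth is unknown, since totals of reads were not used here. Summit fragments and local background were recovered from fold and p-value for 100% of peaks of each list, within 0.0005 in -log10 p. Backgrounds were 0.178 and 0.244 fragments at the lowest in ecSE7 libraries, 0.405 and 0.186 in vector libraries.

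Autosomes and X were used, ranked by q-value, then fold. Overlap meant 1 bp or more. Shares and log10 peak numbers were compared by exact permutation tests, on lists cut to 10288 peaks for shares. Region and gene searches carry no test. Named regions were the 10 largest ratios of the better vector rank to the worse ecSE7 rank among those that passed, the 5 largest on chromosome 8, and 5 in the opposite direction. Named genes were the 12 best by worse rank in each direction, up to 2 per list, and MYC, PVT1, CASC11, LRATD2 and TG. PARAIL and the sites of other perturbations were named after their values were seen. Genes and promoters came from RefSeq (GRCh38.p14), whose gene table gives no exons, so exon, intron and UTR positions are not stated. The members and lists were chosen with earlier results of these data known. Groups and replicate numbers came from titles, and no label says whether replicates were grown separately. The p-values therefore reflect variation among these libraries that may be technical. Searches were tested on simulated peaks added to the real lists. Python 3.11.15, pandas 2.3.3, numpy 2.4.6 and scipy 1.17.1 were used.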

Additional observations from a re-analysis of the deposited data

How the results depend on the processing

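Of 115 alternatives, 51 kept the direction and the side of the threshold, a count within 1.5 times, or a value within 1 SD. The difference between ecSE7 and vector in the chromosome 8 share, -0.175 percentage points, turned to 0.379 in lists as deposited, 0.100 in the 1000 best peaks, 0.436 at q-values of 1e-05 or less and 0.228 ranked by fold. Leaving out a library gave -0.710 to 0.360. Against the 14 libraries it turned to 0.305, 0.314 and 0.236 in lists as deposited, at that q-value and by fold, and leaving out a library gave -0.730 to 0.339. The MYC window difference, -0.0292 points, turned to 0.0456, 0.100, 0.0418 and 0.0292 under the same 4 settings, with -0.0729 to 0.0146 leaving out a library. Against the 14 it turned to 0.0229 in lists as deposited and 0.00150 at that q-value, passed the threshold at 10 Mb (-0.234), and ran from -0.127 to -0.0396 leaving out a library. The log10 peak number difference ran from -0.519 to -0.0435 against vector and from -0.463 to -0.115 against the 14. No p of the ecSE7 and vector differences could fall under 0.33. Without the 2 libraries that have no RNU6-1 peak, added after seeing the data, all 3 comparisons with the others kept their direction.

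Deviations of ecSE7 replicate 1 and vector replicate 1 from their group means had a correlation of 0.0165 over 1 Mb bins. With 2 libraries a group, that single value cannot show whether libraries of equal replicate number were handled together. The replicate block gave -0.175 and -0.0292 points and -0.281 in log10 peaks, with no call changed.

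Regions high after ecSE7 and low after vector numbered 17, and 0 at ranks of 100 or 300, 9 by percentiles of each list, 7 where absent from vector, 0 at an overlap of 500 bp, 184 at any rank but absent from vector (added after seeing the data) and 31 to 556 leaving out a library, with 22 ranked by fold. The opposite direction gave 14, and 0, 0, 33, 8, 0, 367 and 22 to 712, with 9 ranked by fold. Genes numbered 179 after ecSE7 and 100 in lists as deposited, 32 at q-values of 1e-05 or less, 2 at an overlap of 500 bp and 333 to 971 leaving out a library. After vector they numbered 167, and 469, 423, 16 and 312 to 823. Leaving out a library removes a condition of these searches, so the region and gene counts rise by construction. Best peaks shared by the ecSE7 lists were 32.0% of 100, 13.72% of 5000, 5.20% at an overlap of 500 bp and 6.20% by fold, beside medians of 30.0%, 14.4%, 6.12% and 3.75% for ecSE7 and vector pairs.

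The difference of -6.17 in chromosome 8 regions of the 100 best peaks became -9.33 in the 300 best, -16.8 in the 1000 best and -0.167 by fold, and ran from -6.67 to -5.25 leaving out a library. The 1 chromosome 8 region of the ecSE7 search became 3 to 8 without a vector library and 0 by fold, and the median of 6 in the 12 other pairs became 7 to 8.5 and 0. These were added after seeing the data. The cause of these changes was not tested. Peaks at the median rest on 5 to 11 summit fragments, and absence from a list does not show absence of the mark.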
